A study of Mus musculus with 2 samples.

Results

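The histone cluster genes of the mouse encode the linker histone H1 and the core histones H2A, H2B, H3 and H4. They were taken as every gene symbol in the deposited feature tables that starts with Hist1h, Hist2h, Hist3h or Hist4. The rule found 70 of 55450 features, comprising 6 H1, 20 H2A, 19 H2B, 12 H3 and 13 H4 genes. Of these, 56 lie in the large cluster on chromosome 13, 10 on chromosome 3, 3 on chromosome 11 and 1 on chromosome 6. UMIs, the unique molecular identifiers that count captured transcripts, were seen in both libraries for 62 of them, in 1 library for 4 and in neither for 4 (Hist1h2aa, Hist1h2ba, Hist1h2bq and Hist2h3c1). The 20 members with the most UMIs are described by name, and they hold 93.0% of the 84614 histone UMIs of the cells kept.

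The study compared peritoneal macrophages of Ankrd22-/- mice, made with CRISPR/Cas9, with those of Ankrd22+/+ mice. Cells bearing the macrophage antigen F4/80 were sorted from lavage fluid, and 1 library was made per genotype with version 3 of the 10x Genomics kit for 3' ends of transcripts. The labels give neither the age of the mice, nor how many were pooled, nor which part of Ankrd22 was deleted. Every difference between genotypes is therefore a difference between 2 libraries, no test was made, and intervals cover counting error only.

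Most histone mRNAs are made while DNA replicates and are the only mRNAs of animal cells known to lack a poly(A) tail. They end a few bases after a conserved stem-loop, which the stem-loop binding protein SLBP holds during processing, export and translation. Some members can also be cleaved further downstream at an ordinary poly(A) signal, which gives a tailed transcript. The kit primes on poly(A), so its counts report captured, mostly tailed histone transcripts and not the total histone mRNA of a cell.

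The stem-loop is the feature that sets these transcripts apart, and it was read from the GENCODE M21 transcripts (GRCm38) as an inverted repeat of 6 bases around a loop of 4 bases. It was found in 46 members, and the forms that occurred in at least 2 of them are shown with their stems in capitals and the loop in lower case.
Form of 26 members in the H1, H2A, H2B and H3 families, among them Hist1h1e, Hist1h1c and Hist1h2ap: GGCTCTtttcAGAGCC
Form of 7 H4 members, among them Hist1h4d and Hist1h4h: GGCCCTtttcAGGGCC
Form of 6 members, among them Hist1h3c and Hist1h3e: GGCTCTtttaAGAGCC
Form of Hist1h4i and Hist2h4: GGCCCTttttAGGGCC
Form of Hist1h4b and Hist1h4j: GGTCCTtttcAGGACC
The H4 forms differ from the others within the stem. Every stem shown pairs because the search required an inverted repeat, so the pairing is not a finding. In Hist1h1e the stem-loop lies in the last exon at chr13:23621782-23621797 on the minus strand, 1153 bases before the annotated end of the transcript. In Hist1h2ap it lies at chr13:21833029-21833044 on the minus strand, 3 bases before the annotated end.

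By the annotated end of their transcripts the members fell into 3 classes. In 23 members the transcript ended less than 100 bases after the stem-loop, as for Hist1h2ap, Hist2h2ac, Hist1h4h, Hist2h2aa1, Hist1h2ab and Hist1h3c. In another 23 it ran on further, as for Hist1h1e, Hist1h1c, Hist1h1d, Hist1h4d, Hist1h2ae, Hist3h2a, Hist1h4i, Hist1h2ac, Hist1h3e, Hist1h3d and Hist1h2be. In the other 24 no stem-loop was found in the annotated transcript, as for Hist1h1b, Hist1h1a and Hist1h2bc, which says only that the annotated sequence does not hold it. A poly(A) signal (AATAAA or ATTAAA) stood in the last 60 bases of 1 member of the first class, 12 of the second and 2 of the third.

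The knockout library held 110956482 UMIs in 6706 barcodes and the wild type library 96869041 UMIs in 6315 barcodes. After filters, 5990 knockout and 5907 wild type cells were kept, and 11 kept barcodes occurred in both libraries. Ankrd22 had 0 UMIs in both, which allows up to 0.0270 and 0.0310 CPM (a gene's UMIs after every group is brought to an equal total), so it does not check the labels. The non-cycling cells were macrophages by their markers: Gata6, Icam2, Timd4, Prg4, Adgre1, Cd9 and Selp summed to 14549.7 CPM (knockout) and 10120.6 CPM (wild type). The summed B, T, mast cell, eosinophil and mesothelial markers lay between 0.0156 and 3.33 CPM, with Fcer1a, Prg2, Epx and Krt19 at 0 in both libraries. The neutrophil markers summed to 85.9 and 88.0 CPM.

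Each cell was placed in a state without using the histone genes, from 5000 of its UMIs drawn at random. Non-cycling cells had no UMI of Mcm2 to Mcm7, which encode the replicative helicase, and none of Mki67, Top2a or Birc5, which are highest in G2 and mitosis. Mcm-high cells had at least 3 Mcm UMIs and under 3 of the other sum, mitosis-high cells had at least 3 UMIs of the latter, and the remainder were called intermediate. The knockout library held 4028 non-cycling, 324 Mcm-high and 112 mitosis-high cells, and the wild type library 4232, 116 and 180. Median depth was 15286.5, 23159 and 29763 UMIs in the 3 knockout states and 14405.5, 22622.5 and 22150 UMIs in the wild type states, so levels are given in CPM. Each class is a range of a sum: 123 knockout and 56 wild type cells stood at exactly 3 Mcm UMIs, and 25 and 24 cells at exactly 3 mitosis UMIs.

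Histone transcripts were far more abundant in mitosis-high cells than in non-cycling cells, while Mcm-high cells as a group stood close to non-cycling ones. Over all members the knockout library held 396.8 CPM (392.0 to 401.7) in non-cycling, 346.1 CPM (333.1 to 359.5) in Mcm-high and 3666.8 CPM (3602.8 to 3731.6) in mitosis-high cells. The wild type library held 245.1 CPM (241.3 to 248.9), 321.4 CPM (299.7 to 344.3) and 2692.8 CPM (2643.6 to 2742.8). Mitosis-high over non-cycling cells was 9.24-fold (9.05 to 9.44) in the knockout and 11.0-fold (10.7 to 11.3) in the wild type library. Mcm-high over non-cycling cells was 0.872-fold (0.838 to 0.908) and 1.31-fold (1.22 to 1.41), and with states called from 3000 UMIs per cell both ratios lay above 1, at 1.09 and 1.98.

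The Mcm-high cells carried other transcripts of DNA replication. Of 17 S phase genes such as Pcna, Tyms and Rrm1, 10 were measured in each library, which here means a mean of at least 20 CPM over the 2 groups compared, and 10 of 10 were at least 2-fold above non-cycling cells, with median log2 ratios of 3.03 and 3.62, where 2.01% and 3.92% of all measured genes were. Log2 ratios are taken with 1 CPM added to each side, and folds without. Of 13 genes of G2 and mitosis such as Ccnb1 and Plk1, 0 and 1 reached that mean, but some were also above the non-cycling level. Examples picked after their values were seen are Cdk1, at 21.4 against 1.01 CPM in the knockout and 46.9 against 2.11 CPM in the wild type library, and Tpx2, at 8.53 against 0.595 CPM and 15.4 against 0.530 CPM. In mitosis-high cells 13 of 13 of these were at least 2-fold higher in each library, with medians of 6.43 and 6.05, but the S phase genes were higher as well, at 15 of 15 and 11 of 11 measured, against 8.03% and 7.50% of all measured genes. Most of these genes reach the minimum only through the cycling cells, so their counts describe the classes and are no test of them. Most Mcm-high cells had only 0 to 4 S phase UMIs, at 210 of 324 and 63 of 116. Split after the values were seen, at 0 to 4, 5 to 9 and 10 or more, knockout Mcm-high cells held 360.2, 330.5 and 308.6 CPM of histone transcripts. Wild type cells held 279.0, 263.5 and 547.3 CPM, the last in 18 cells.

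**Figure D1:**
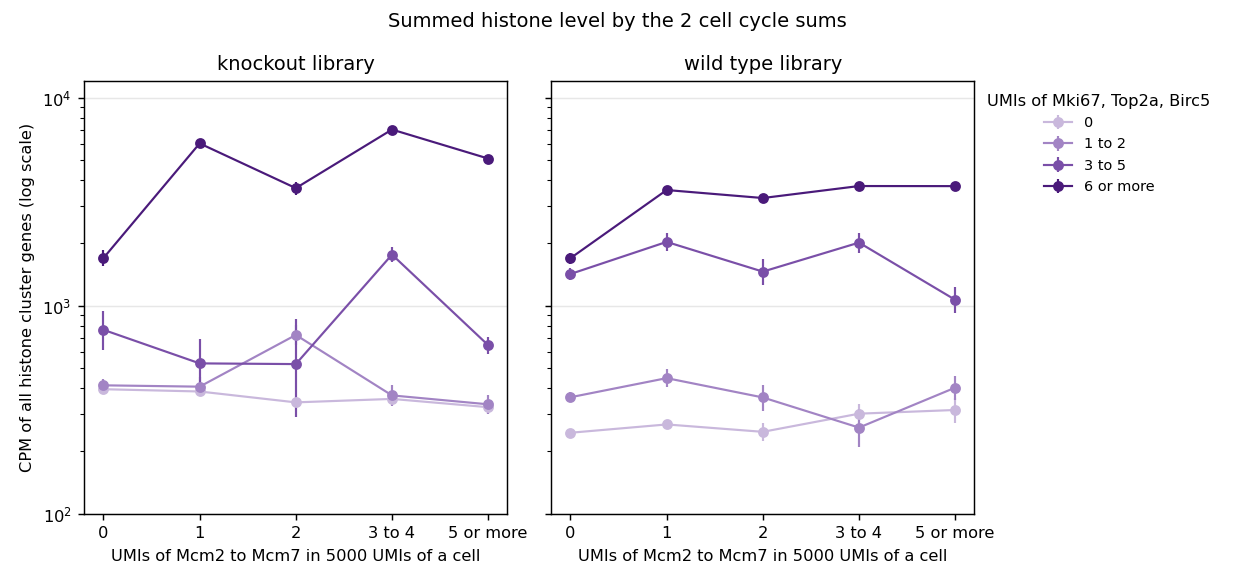
Summed CPM of all 70 histone cluster genes (log scale) in cells binned by their Mcm UMIs (horizontal axis) and by their Mki67, Top2a and Birc5 UMIs (line shade), in 5000 UMIs of each cell; left, knockout, right, wild type, with 1 library each; bars are exact Poisson 95% intervals. The darkest line, 6 or more mitosis UMIs, lies highest in every bin, and along the palest line (no mitosis UMI) the level stays between 325.2 and 396.8 CPM in the knockout and between 245.1 and 315.3 CPM in the wild type library.

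Set out by both sums, the histone level followed the mitosis sum far more than the Mcm sum. Among cells without a mitosis UMI, those with 5 or more Mcm UMIs held 325.2 CPM (301.5 to 350.3, 86 cells) in the knockout and 315.3 CPM (273.5 to 361.7, 32 cells) in the wild type library. Cells with 6 or more mitosis UMIs held 5165.3 CPM (5070.9 to 5260.9, 70 cells) and 3165.2 CPM (3101.7 to 3229.6, 123 cells). Among these, the level was lowest where the Mcm sum was 0, at 1693.2 CPM in 10 knockout cells and 1690.8 CPM in 34 wild type cells. In the other Mcm bins of that row it lay between 3669.8 and 7016.4 CPM in the knockout and between 3289.0 and 3755.7 CPM in the wild type library. Several of these bins hold fewer than 20 cells.

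Single mitosis-high cells varied widely. The median knockout cell of this class held 1985.2 CPM and the median wild type cell 2167.7 CPM. Percentiles 10 to 90 spanned 253.2 to 9045.0 CPM in the knockout and 277.0 to 4900.7 CPM in the wild type library. The median non-cycling cell held 308.0 and 181.7 CPM. The lowest mitosis-high cells thus overlapped the non-cycling cells in level. Split by their UMIs of the G2 and mitosis genes, a split chosen after the values were seen, the 41 knockout and 33 wild type mitosis-high cells with 0 to 4 such UMIs held 1047.8 and 1572.7 CPM. Those with 5 and more but under 15 held 4541.6 CPM (35 cells) and 3239.9 CPM (94 cells), and those with 15 or more held 6031.1 CPM (36 cells) and 2382.5 CPM (53 cells). Split instead by their S phase UMIs, at 0 to 4, 5 to 9 and 10 or more, the knockout cells held 2617.9, 5547.5 and 3601.5 CPM (34, 16 and 62 cells) and the wild type cells 1800.0, 3426.6 and 3534.2 CPM (93, 29 and 58 cells). In both splits the lowest bin was the lowest in histone level in each library, and the upper bins followed no common order, with overlapping intervals for the upper S phase bins of the wild type library.

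At the level of single genes, 12 of the 14 measured members were at least 2-fold higher in knockout mitosis-high cells than in non-cycling ones, where 8.03% of all measured genes were, and 1 was at least 2-fold lower against 0.801%. In the wild type library 8 of 10 were higher, against 7.50%, and 0 were lower, against 0.562%. The median log2 ratio of the measured members was 3.07 and 3.41, beside 0.11 and 0.12 over all measured genes. With the minimum lowered to 5 CPM, 28 of 33 members were higher in the knockout library, against 8.58% of genes, and 2 lower, against 1.31%. In the wild type library 22 of 25 were then higher, against 8.57%, and 1 lower, against 0.826%. A gene can pass these minimums through the mitosis-high group alone, so the counts describe the genes that passed and not all 70.

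The linker histones, which bind the DNA between nucleosomes, showed the full range of behaviour. Hist1h1b held 8.65 CPM in non-cycling, 35.3 CPM in Mcm-high and 975.2 CPM in mitosis-high knockout cells, and 4.71, 33.9 and 511.7 CPM in wild type cells. Its mitosis-high level was 112.7-fold (103.1 to 123.4) and 108.6-fold (96.2 to 122.9) above non-cycling cells. In Mcm-high cells it was at 4.08-fold (3.51 to 4.72) and 7.20-fold (5.60 to 9.18) of the non-cycling level, the latter below the minimum of 20 CPM. In the knockout library 73.7% of its UMIs came from the mitosis-high cells, which held 3.36% of all UMIs, and in the wild type library 80.7% came from cells with 4.81% of all UMIs.

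Hist1h1c stood at the other end. It held 47.3, 19.5 and 69.4 CPM in non-cycling, Mcm-high and mitosis-high knockout cells, and 58.2, 26.0 and 53.7 CPM in wild type cells. Mitosis-high over non-cycling was 1.47-fold (1.28 to 1.67) in the knockout and 0.923-fold (0.803 to 1.06) in the wild type library, the latter turning above 1 with another random draw. In Mcm-high cells it was at 0.412-fold (0.348 to 0.486) and 0.447-fold (0.345 to 0.570) of the non-cycling level.

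The other linker histones lay between. Hist1h1e, with the most UMIs of all members, held 87.8, 80.2 and 423.8 CPM in the 3 knockout states and 43.3, 49.7 and 236.0 CPM in the wild type states. Hist1h1d went from 11.3 to 83.1 CPM in the knockout and from 2.84 to 66.7 CPM in the wild type library between non-cycling and mitosis-high cells. Hist1h1a went from 1.39 to 54.1 CPM and from 0.624 to 37.4 CPM, which is 39.0-fold (30.2 to 50.7) and 59.9-fold (42.1 to 87.0). The value of Hist1h1e is uncertain, since 99.0% of the 90-base words at its 3' end also occur in another gene's transcript, and its locus overlaps Hist1h2be on the same strand.

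Since Hist1h1b and Hist1h1c are the linker histones with the highest and lowest ratio between mitosis-high and non-cycling cells, their 250 bases before the start site are shown from RefSeq (GRCm38.p6), with AAACACA (the H1 box), CCAAT and TATAAA in capitals wherever they occur on either strand.
Hist1h1b, chr13:21780626-21780875, minus strand: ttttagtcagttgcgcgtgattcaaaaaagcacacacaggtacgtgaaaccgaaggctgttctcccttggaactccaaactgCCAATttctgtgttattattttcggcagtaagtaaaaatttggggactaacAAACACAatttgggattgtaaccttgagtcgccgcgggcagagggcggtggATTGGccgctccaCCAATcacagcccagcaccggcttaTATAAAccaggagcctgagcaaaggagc
Hist1h1c, chr13:23738557-23738806, plus strand: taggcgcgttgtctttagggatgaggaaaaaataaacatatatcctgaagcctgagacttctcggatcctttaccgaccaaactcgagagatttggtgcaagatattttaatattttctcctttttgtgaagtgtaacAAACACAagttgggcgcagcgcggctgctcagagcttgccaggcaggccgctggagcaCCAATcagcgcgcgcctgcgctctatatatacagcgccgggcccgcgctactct
Both hold AAACACA, 117 and 112 bases before the start, and both hold CCAAT. In Hist1h1b the letters TATAAA occur at 28 bases, and they are not in this window of Hist1h1c. Of the 61 members matched in the table, 9 (14.8%) held AAACACA, 5 of them among the 6 H1 genes, where 6.22% of all 27025 promoters did. CCAAT was in 50 of 61 (82.0%, against 34.5%), in every H1, H2A and H2B promoter matched but in 3 of 12 of the H4 promoters. The letters TATAAA were in 29 of 61 (47.5%, against 13.0%).

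Among the H2A genes, Hist1h2ap held 25.9, 32.7 and 626.9 CPM in non-cycling, Mcm-high and mitosis-high knockout cells and 24.2, 98.2 and 886.3 CPM in wild type cells. Its mitosis-high level was 24.2-fold (22.7 to 25.9) and 36.6-fold (34.5 to 38.8) above non-cycling cells. The higher value in wild type Mcm-high cells rested on few cells: of its 249 UMIs in 116 cells, the 5 highest cells held 47.8%. Hist1h2ap shares 92.4% of its end sequence words with other genes, so reads could be split or lost between copies.

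Hist1h2ae, at 15.7 and 327.5 CPM in the knockout and 8.19 and 328.3 CPM in the wild type library, was 20.9-fold (19.2 to 22.7) and 40.1-fold (36.2 to 44.4) higher in mitosis-high than non-cycling cells. Hist1h2ab (1.69 to 56.8 CPM, and 0.468 to 37.4 CPM) and Hist2h2ac (12.1 to 108.6 CPM, and 2.87 to 45.7 CPM) had the same direction. Hist2h2aa1, whose end sequence is shared in full with other genes, went from 4.40 to 21.1 CPM and from 2.25 to 16.1 CPM. Hist3h2a, from the small cluster on chromosome 11, went the opposite way, from 12.7 to 1.46 CPM (5 UMIs) in the knockout and from 15.9 to 4.73 CPM (20 UMIs) in the wild type library. Those are 0.115-fold (0.0373 to 0.270) and 0.298-fold (0.181 to 0.463). It overlaps Trim17 on the same strand.

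Hist1h2bc was the leading H2B transcript of non-cycling cells and was lower in both cycling classes. It held 59.2, 24.2 and 22.2 CPM in non-cycling, Mcm-high and mitosis-high knockout cells, and 39.8, 11.0 and 21.1 CPM in wild type cells. Mitosis-high over non-cycling was 0.376-fold (0.295 to 0.471) and 0.529-fold (0.423 to 0.653). Hist1h2be held 5.49 and 19.6 CPM in knockout and 1.62 and 10.9 CPM in wild type non-cycling and mitosis-high cells. Between mitosis-high and non-cycling cells H2B was the family whose sum differed least, at 2.46-fold (2.26 to 2.67) and 2.22-fold (2.01 to 2.45). That sum rests mostly on Hist1h2bc, which held 3879 of 5040 non-cycling H2B UMIs in the knockout and 2553 of 3052 in the wild type library. It does not describe the other H2B members.

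The H3 genes, whose products form the tetramer at the nucleosome's core with H4, held the named member with the highest ratio between mitosis-high and non-cycling cells. Hist1h3c had 1 UMI in the 4028 non-cycling knockout cells and 3 UMIs in the 4232 wild type cells, against 336 UMIs in 112 and 161 UMIs in 180 mitosis-high cells. The fold over these counts was 6443.5 (1148.6 to 255251.7) and 814.2 (273.7 to 3989.4). It was detected in 64 of 112 mitosis-high cells of the knockout and 70 of 180 of the wild type, and the 5 highest of these wild type cells held 21.1% of its UMIs there. Hist1h3e went from 5.97 to 56.2 CPM and from 2.12 to 31.7 CPM, and Hist1h3d from 6.52 to 12.0 CPM and from 1.22 to 14.0 CPM.

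Among H4 genes, Hist1h4d held 34.5, 22.1 and 296.5 CPM in the 3 knockout states and 11.7, 13.0 and 117.4 CPM in the wild type states. Mitosis-high over non-cycling was 8.60-fold (7.98 to 9.27) and 10.1-fold (8.97 to 11.3). Hist1h4h went from 5.88 to 45.7 CPM and from 2.22 to 16.6 CPM. Hist1h4i differed less, from 11.2 to 23.4 CPM and from 10.4 to 29.8 CPM, or 2.10-fold (1.64 to 2.64) and 2.87-fold (2.35 to 3.47).

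**Figure D2:**
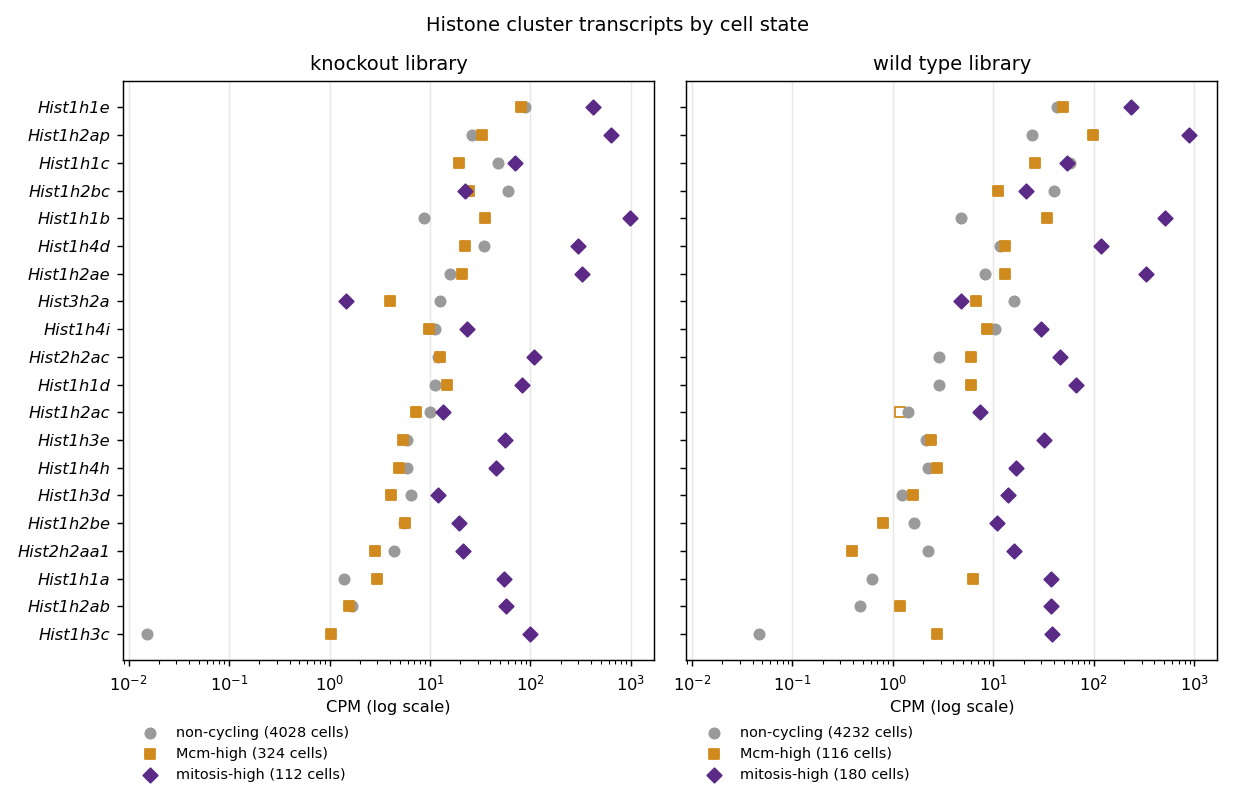
CPM (log scale) of the 20 named histone genes in non-cycling (grey circles), Mcm-high (orange squares) and mitosis-high (purple diamonds) cells of the knockout (left) and wild type (right) library, 1 library each, genes ordered by total UMIs; the open square marks 0 UMIs, drawn at the level of 3 counts. Purple lies to the right of grey for most genes and by most for Hist1h3c, and to the left for Hist1h2bc and Hist3h2a in both libraries.

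The other 50 members held 7.37% of histone UMIs in non-cycling knockout cells and 4.48% in wild type cells. Their highest levels there were 3.42 CPM (Hist4h4) and 2.15 CPM (Hist2h2be), and 0 of 50 reached 5 CPM. In mitosis-high cells 17 and 11 of the 50 did, led by Hist1h2bj at 35.7 CPM in the knockout and Hist1h2af at 24.1 CPM in the wild type library.

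In Mcm-high cells 6 and 4 members were measured. In the knockout library Hist1h1b was at least 2-fold higher (1 of 6, against 2.01% of genes), and Hist1h1c and Hist1h2bc were at least 2-fold lower (2 of 6, against 0.261%). In the wild type library Hist1h2ap was higher (1 of 4, against 3.92%), and the same Hist1h1c and Hist1h2bc were lower (2 of 4, against 0.300%). At a mean of 5 CPM 2 of 9 wild type members were higher (Hist1h1b and Hist1h2ap), against 5.29%, and 3 lower, with Hist3h2a added, against 0.616%. A gene can pass these minimums through the group where it is higher, so the counts describe the genes that passed. Knockout Hist1h1b (8.65 against 35.3 CPM) passed 20 CPM only through Mcm-high cells. Wild type Hist1h2bc (39.8 against 11.0 CPM) passed it only through non-cycling cells. By family, the H2B sum was lowest relative to non-cycling cells, at 0.559-fold (0.499 to 0.625) and 0.514-fold (0.393 to 0.660), and Hist1h2bc held most of its non-cycling UMIs. H2A was level in the knockout (log2 ratio 0.01) and at 2.32-fold (2.06 to 2.59) in the wild type library. Hist1h2ap held 249 of the 328 H2A UMIs of wild type Mcm-high cells, and its level there rested on few cells.

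The annotated 3' ends divided these patterns in part. Members that run on past the stem-loop held 66.6% of histone UMIs in non-cycling knockout cells and 66.2% in wild type cells, and 38.0% and 34.9% in mitosis-high cells. Members that end near it went from 14.0% to 29.5% and from 13.8% to 41.2%. In fold, the near class was 19.5 (18.6 to 20.4) and 32.7 (31.1 to 34.5) times as abundant in mitosis-high as in non-cycling cells, and the extended class 5.27 (5.10 to 5.44) and 5.80 (5.59 to 6.02) times. Members without an annotated stem-loop stood between, at 15.5 and 13.1 times. A few genes carry each class, with Hist1h2ap in the near, Hist1h1e and Hist1h1c in the extended and Hist1h1b and Hist1h2bc in the last class. The classes describe the gene models, since UMI counts per gene do not show where a transcript ended.

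**Figure D3:**
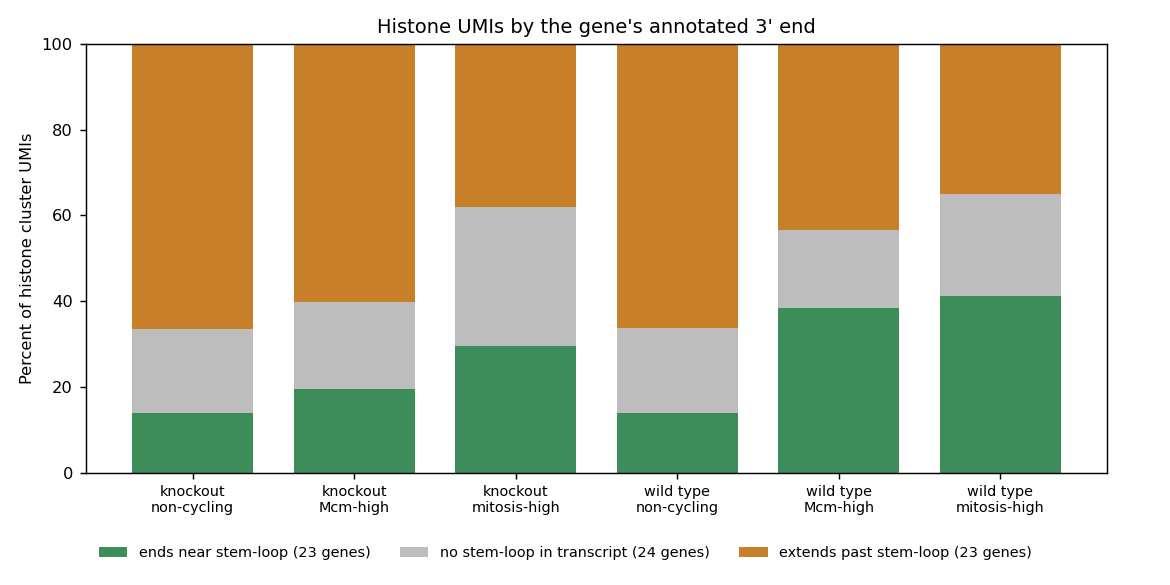
Percent of histone cluster UMIs from members whose annotated transcript ends near the stem-loop (green), holds no stem-loop (grey) or extends past it (orange), by library and state, with 1 library per genotype and no error bars. The orange share is about 66% in the non-cycling cells of both libraries and 38.0% and 34.9% in mitosis-high cells.

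Between genotypes, the summed histone level of non-cycling cells was 1.62-fold (1.59 to 1.65) higher in the knockout library, and 1.33-fold over all kept cells. The excess was largest for H3, at 15.8 against 5.13 CPM or 3.08-fold (2.72 to 3.50), and H4, at 63.1 against 26.8 CPM or 2.35-fold (2.22 to 2.49). H2B, H2A and H1 were at 1.62-fold (1.54 to 1.69), 1.51-fold (1.45 to 1.58) and 1.43-fold (1.38 to 1.47). The median gene of the same cells also stood higher in the knockout library, by 0.20 on the log2 scale, and scaling by TMM or by the median of ratios moved all ratios by -0.28 and -0.29. The sum was then 1.33-fold under both.

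Other properties of the cells moved with the genotype. In non-cycling cells the nuclear RNA Malat1 held 12439.9 CPM (knockout) and 4722.3 CPM (wild type), and the median mitochondrial share was 1.47% and 0.682%. At full depth these cells still held UMIs of Mcm2 to Mcm7, at 35.5 CPM (knockout) and 21.6 CPM (wild type). Mki67, Top2a and Birc5 went the other way, at 4.53 and 7.46 CPM. The haemoglobin genes Hba-a1 and Hbb-bs summed to 100.7 and 31.8 CPM, and the small macrophage markers Ccr2, Retnla, Folr2 and Lyve1 to 464.1 and 1348.0 CPM. The highest single gene among these markers held 433.6 and 1292.5 CPM. In class II high non-cycling cells alone the markers went the other way, at 15440.9 and 11466.3 CPM. The part of these properties in the histone difference was not tested. In the few class II high non-cycling cells, 66 knockout and 98 wild type, the histone level was 358.2 CPM (323.3 to 395.8) against 274.3 CPM (248.0 to 302.7), a ratio of 1.31, while the class II low cells gave 1.63.

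Of 5 measured members, 2 were at least 2-fold higher in knockout non-cycling cells, where 1.53% of all measured genes were, and 0 were lower, against 1.72%. These were Hist1h4d, at 34.5 against 11.7 CPM or 2.96-fold (2.72 to 3.22), and Hist1h1e, at 87.8 against 43.3 CPM or 2.03-fold (1.94 to 2.12). Hist1h1e stood at the threshold itself, and its log2 ratio was 0.73 under TMM scaling and -0.22 in class II high cells. Hist1h2bc was 1.49-fold (1.41 to 1.56) higher and Hist1h1c 0.812-fold (0.774 to 0.852), that is lower in the knockout. Hist1h2ap, at 25.9 and 24.2 CPM, had a log2 ratio of 0.09, which was -0.18 under TMM scaling.

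With the minimum at 5 CPM, 5 of 12 members were at least 2-fold higher, against 2.28% of genes, and 0 lower, against 1.54%. The additional ones were Hist1h2ac at 10.0 against 1.42 CPM, Hist2h2ac at 12.1 against 2.87 CPM and Hist1h1d at 11.3 against 2.84 CPM. Their folds were 7.04 (5.65 to 8.87), 4.20 (3.57 to 4.96) and 3.97 (3.37 to 4.70). Each of these additional members passed the minimum only through the knockout library, and Hist1h4d passed 20 CPM the same way. Counts between genotypes, here and in the other states, therefore describe the genes that passed and not all members. Below a mean of 5 CPM, Hist1h3d stood at 6.52 against 1.22 CPM, Hist1h2be at 5.49 against 1.62 CPM, Hist1h3e at 5.97 against 2.12 CPM and Hist1h4h at 5.88 against 2.22 CPM. Hist3h2a, at 12.7 against 15.9 CPM, was lower in the knockout like Hist1h1c, with a log2 ratio of -0.30. Hist1h4i, with 11.2 and 10.4 CPM, also turned with the scaling, from a log2 ratio of 0.09 to -0.16 under TMM.

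**Figure D4:**
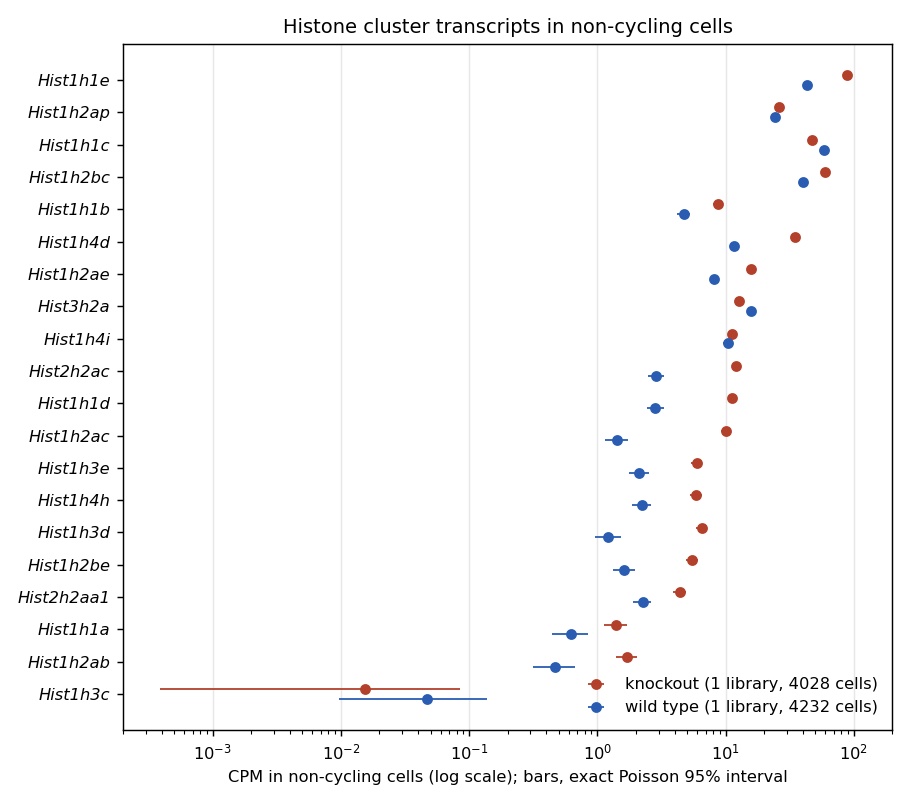
CPM (log scale) of the 20 named histone genes in non-cycling cells of the knockout (red, 4028 cells) and wild type (blue, 4232 cells) library, 1 library each; bars are exact Poisson 95% intervals. Red lies to the right for most genes, widest for Hist1h2ac (10.0 against 1.42 CPM), and to the left for Hist1h1c, Hist3h2a and Hist1h3c (1 and 3 UMIs); Hist1h2ap and Hist1h4i turn with the scaling.

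The excess of Hist1h2ac was spread over cells, since 585 of 5990 kept knockout cells had at least 1 of its 1034 UMIs, and the 5 highest cells held 5.80%. In the knockout library it stood at 10.0, 7.23 and 13.5 CPM in non-cycling, Mcm-high and mitosis-high cells. In the wild type library it stood at 1.42 CPM, 0 UMIs in Mcm-high cells (which allows up to 1.18 CPM) and 7.34 CPM. Hist2h4, outside the named members and singled out after its values were seen, had 221 UMIs in knockout and 14 UMIs in wild type non-cycling cells, or 15.4-fold (9.01 to 28.7).

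Within the mitosis-high cells, the knockout library exceeded the wild type by 2-fold or more for 6 of 19 measured members, against 2.66% of genes, and fell short by as much for 0, against 1.65%. They included Hist1h4d at 296.5 against 117.4 CPM, Hist2h2ac at 108.6 against 45.7 CPM, Hist1h4h at 45.7 against 16.6 CPM and Hist1h3c at 98.3 against 38.1 CPM. Of these, Hist1h4h passed the minimum of 20 CPM only through the knockout library. Hist1h1b was at 975.2 against 511.7 CPM, a log2 ratio of 0.93, and Hist1h2ap was lower at 626.9 against 886.3 CPM, a log2 ratio of -0.50. Hist1h2ae was level, at 327.5 and 328.3 CPM. The 2 mitosis-high groups differ in makeup, since 70 of 112 knockout but 50 of 180 wild type cells were also Mcm-high, and the part of this in the difference was not tested. Among mitosis-high cells that were also Mcm-high, all members together held 3789.4 and 3176.2 CPM, and among the others 3427.9 and 2482.0 CPM. These are sums over cells. The median mitosis-high cell was lower in the knockout library, at 1985.2 against 2167.7 CPM, as was percentile 25, at 458.2 against 673.9 CPM. Percentile 75 was higher, at 6631.8 against 3916.6 CPM, so the higher knockout sums rest on the upper cells.

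In Mcm-high cells the knockout exceeded the wild type by 2-fold or more for 0 of 4 measured members, against 1.37% of genes, and was lower for 1, against 1.95%: Hist1h2ap, at 32.7 against 98.2 CPM. Over all kept cells, where the share of cells in each state enters, 1 of 7 was higher (Hist1h4d, log2 ratio 1.28), against 1.32%, and 0 were lower, against 1.74%. At a mean of 5 CPM 4 of 13 were higher there (Hist2h2ac, Hist1h1d, Hist1h4d and Hist1h2ac), against 2.11%, and 0 lower, against 1.59%. Of the classified cells, 5.53% (4.96 to 6.15) were Mcm-high and 1.91% (1.58 to 2.30) mitosis-high in the knockout, and 2.08% (1.72 to 2.49) and 3.23% (2.78 to 3.73) in the wild type library, with exact Clopper-Pearson intervals.

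The share of non-cycling cells with a UMI differed between members. With every cell at 5000 UMIs, 30.9% (29.5 to 32.3) of knockout and 16.9% (15.8 to 18.1) of wild type non-cycling cells had a UMI of Hist1h1e, and 55.6% and 36.0% did at full depth. For Hist1h2ap it was 11.5% (10.5 to 12.5) and 10.8% (9.88 to 11.8), and 27.8% and 24.0% at full depth. For Hist1h1b it was 3.13% (2.61 to 3.71) and 1.80% (1.42 to 2.24), and 6.26% and 4.32% at full depth. In mitosis-high cells 65.2% and 67.2% had Hist1h1b at equal depth. Free RNA can give such UMIs, and no cell type in the sort is known to lack histone transcripts, so no background share could be set and the shares are not read as expression in those cells.

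The histone mRNA processing factors are given by the same rule. Of the 17 genes listed, 2 of 11 measured in the knockout and 3 of 9 in the wild type library were at least 2-fold higher in Mcm-high cells, and 6 of 11 and 3 of 9 in mitosis-high cells. Over all measured genes the shares were 2.01%, 3.92%, 8.03% and 7.50% in the same order. A processing gene can reach the minimum through the cycling cells, so the counts describe the genes that passed. Slbp, which encodes the stem-loop binding protein, held 31.9, 100.9 and 191.4 CPM in the 3 knockout states and 29.1, 99.8 and 125.4 CPM in the wild type states. Its log2 ratio in Mcm-high over non-cycling cells was 1.63 and 1.74, where the histone sum was at 0.872-fold and 1.31-fold. Casp8ap2, a factor of the histone locus body, held 31.1, 74.0 and 88.1 CPM and 20.4, 52.1 and 49.7 CPM. Eri1, an exonuclease acting on the stem-loop, held 30.3, 55.7 and 94.0 CPM and 18.0, 54.0 and 63.4 CPM.

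Between genotypes, 0 of 9 measured processing factors were 2-fold apart in non-cycling cells, with a median log2 ratio of 0.35 beside 0.20 over all genes. Of all measured genes 1.53% were at least 2-fold higher there and 1.72% lower. Eri1 (0.72), Casp8ap2 (0.59) and Ncbp2 (0.39) had the largest ratios.

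The chaperones that carry new histones to DNA were higher in Mcm-high cells for 4 of 12 measured in the knockout and 6 of 13 in the wild type library, and in mitosis-high cells for 12 of 16 and 9 of 13, each by at least 2-fold. The shares over all measured genes were again 2.01% and 3.92%, and 8.03% and 7.50%. Some chaperone genes, such as Asf1b, reach the minimum only through the cycling cells, so the counts describe the genes that passed. Nasp, which holds a reserve of H3 and H4, went from 15.7 to 103.2 CPM in knockout and from 14.3 to 102.1 CPM in wild type Mcm-high cells. Asf1b, another carrier of H3 and H4, went from 1.79 to 106.5 CPM and from 1.86 to 94.9 CPM between non-cycling and mitosis-high cells. Between genotypes 0 of 10 measured chaperones were 2-fold apart in non-cycling cells, where 1.53% of all measured genes were higher and 1.72% lower.

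The histone variants listed here as replication-independent mostly come from genes with introns and mostly have ordinary poly(A) tails. The list name does not mean that each gene in it, H2afx included, is made only outside replication. In non-cycling cells 0 of 7 measured variants were 2-fold apart between genotypes, with a median log2 ratio of -0.09. Of all measured genes 1.53% were at least 2-fold higher there and 1.72% lower. H3f3b, which encodes a variant of H3 laid down outside replication, held 1193.7 CPM in knockout and 2104.8 CPM in wild type cells (log2 ratio -0.82), and H3f3a 1147.2 and 1216.9 CPM (-0.09). H1f0, a linker histone of resting cells, was at 48.2 and 31.5 CPM, 0.60. By state, 4 of 9 measured variants were at least 2-fold higher in mitosis-high cells of each library, against 8.03% (knockout) and 7.50% (wild type) of all measured genes. Among them were H2afx, from 18.4 to 139.9 CPM and from 18.9 to 212.1 CPM, and Cenpa, from 11.7 to 185.9 CPM and from 12.9 to 307.0 CPM. Both reach the minimum only through the mitosis-high cells, so this count too describes the genes that passed. In Mcm-high cells 0 of 8 were 2-fold apart from non-cycling cells in either library. Of all measured genes 2.01% (knockout) and 3.92% (wild type) were higher there, and 0.261% and 0.300% lower.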

How the data were processed

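The authors deposited, for every barcode, the count of UMIs of each gene. Per the file headers these counts come from Cell Ranger 6.1.2. The submitters' processing notes also name bcl2fastq and Seurat 4.1.0, and the assembly mm9, but all 55450 feature identifiers are in GENCODE M21 (GRCm38), which was used for positions and transcripts. Whether intronic reads were counted is not given in the sources used here. The members and all lists were chosen with earlier results of these data known. Because each genotype has 1 library, differences cannot be checked against replicates.

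Barcodes with at least 500 genes and at most 10% mitochondrial UMIs were kept. Scrublet called 1 doublet in each library by its own threshold, below a working share of 0.5%, so the highest scores were removed at 0.8% per 1000 barcodes (324 knockout, 313 wild type). Barcodes with at least 3 UMIs of B cell marker genes, such as Cd79a and Cd79b, were left out. Class II high cells had at least 25 of 5000 UMIs from H2-Aa, H2-Ab1, H2-Eb1 and Cd74. States came from each cell thinned to 5000 UMIs (seed 0), which left 134 knockout and 337 wild type cells unclassed.

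UMIs were summed per library and state and scaled to CPM. Levels have exact Poisson and folds exact conditional binomial 95% intervals. PCR copies are collapsed by UMI, and intervals cover counting error only. Since 3' counting gives 1 UMI per captured transcript, CPM was not divided by length. Called means at least 2-fold apart at a mean of 20 CPM or more. The named members are the 20 with the most UMIs, if at least 50. Of each other list, the 3 highest by level and the 3 with the largest ratio at that mean could be named. The scripts were tested on simulated data. Alternatives were other scalings, pseudocount, minimum level, cell filters, state cuts, thinning depth and seed, and class II subsets. Tools were Python 3.11.15, numpy 2.4.6, scipy 1.17.1, scanpy 1.11.5, matplotlib 3.10.9, R 4.3.3 and edgeR 4.0.16 (TMM only).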

Additional observations from a re-analysis of the deposited data

Results flagged for a closer look

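Mcm-high over non-cycling cells went in opposite directions in the 2 libraries for the sum over all histone cluster genes, at 0.872-fold in the knockout and 1.31-fold in the wild type library. The difference was not tested, and with states called from 3000 UMIs both values lay above 1. In this state Hist1h2ap held 32.7 CPM in knockout and 98.2 CPM in wild type cells, and the 5 highest of 116 wild type cells held 47.8% of its UMIs.

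Barcodes with B cell marker UMIs, which entered no comparison, also held histone transcripts. The sum was 412.0 CPM (365.2 to 463.2) over 51 knockout barcodes and 680.8 CPM (598.2 to 771.6) over 41 wild type barcodes, against 396.8 and 245.1 CPM in non-cycling macrophages. The B marker barcodes were not limited to non-cycling ones: Mki67, Top2a and Birc5 summed to 14.7 and 113.9 CPM in them, against 4.53 and 7.46 CPM in the non-cycling macrophages, and the Mcm genes to 164.8 and 111.1 CPM, against 35.5 and 21.6 CPM. These barcodes also carried macrophage markers, at 9373.2 and 3442.7 CPM, and class II markers, at 7795.8 and 14307.0 CPM. The difference between the libraries was not tested.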

How the results depend on the processing

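No paired analysis was possible because each genotype has 1 library, and no library was left out. The values below are those that moved, and the cause was not tested.

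The histone sum of knockout over wild type non-cycling cells (1.62-fold) was 1.33 under TMM scaling, 1.33 under median of ratios scaling, 1.56 from 3000 UMIs per cell, 1.57 with another random draw and 1.31 in class II high cells alone, and that over all kept cells (1.33-fold) was 1.1 under both scalings. Members at least 2-fold higher in non-cycling cells numbered 1, not 2, under either scaling, from 3000 UMIs or with another draw, 5 at a mean of 5 CPM and 0 in class II high cells. Over all kept cells 4 of 13 were higher at 5 CPM. In class II high cells the log2 ratio of Hist1h1e was -0.22, the 1 ratio past 2-fold that changed sign.

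Mcm-high over non-cycling (0.872-fold, knockout) was 0.831 under TMM, 0.836 under median of ratios, 0.968 with a state cut of 5 UMIs and 1.09 from 3000 UMIs. In the wild type library (1.31-fold) it was 1.14, 1.15, 1.86 and 1.98, and 1.15 with a cut of 2 UMIs. With that cut 0 knockout members were higher and 0 were lower in either library. The wild type count of 1 higher was 2 of 9 at 5 CPM, and 2 with a cut of 5, from 3000 UMIs and with another draw.

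Mitosis-high over non-cycling (9.24-fold, knockout) was 8.12 and 8.21 under the scalings, 8.87 without doublet removal, 8.88 with every barcode, 7.61 and 11.6 with cuts of 2 and 5, 11.6 from 3000 UMIs and 9.55 with another draw. In the wild type library (11.0-fold) it was 9.44 and 9.54, 9.04 and 12.4, 11.6 and 10.6. At 5 CPM 28 and 22 members were higher and 2 and 1 lower, and 1 was lower in the wild type library under either scaling and with a cut of 5.

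Of 120 ratios of named members, 112 kept their sign under TMM and 113 under median of ratios. The 65 at least 2-fold apart kept their sign under every alternative except class II high cells, where 8 of 9 did. Another 8 and 7 ratios, each under 2-fold, changed sign under the scalings. The minimum of 20 CPM leaves 4 to 6 members in the Mcm-high comparisons, and their small number of cells, 324 and 116, widens the intervals there.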
